A study of Mus musculus with 18 samples.

Results

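Fgf3, Fgf4, Fgf5, Fgf8, Fgf10, Fgf15 and Fgf17 are ligands of the fibroblast growth factor (FGF) family that act in the early embryo. They were followed through the differentiation of mouse embryonic stem cells into heart cells. The members were given by name, and every probe set that the array annotation assigns to these symbols alone was taken, which gave 14 of 45101 probe sets and 7 of 18193 genes. All 7 genes had at least 1 probe set. The probe set chosen to stand for a gene was the one with the highest mean, with those of type x (_x_ in the name) passed over where another existed. In 5 genes the chosen probe set reached a signal of 22.5 (the median of all signals) on at least 2 arrays and was tested. Fgf8 reached it on 1 array and Fgf17 on 0, so both were left out of the main test.

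FGF ligands are secreted proteins that bind receptor tyrosine kinases together with heparan sulfate, or with a klotho protein in the case of the endocrine ligands, and signal mainly through Ras and the ERK kinases. ERK activity then switches on response genes, among them the Etv transcription factors and the Sprouty and Dusp feedback inhibitors. In the mouse embryo Fgf4 is made by pluripotent cells, Fgf5 by the epiblast, and Fgf8, Fgf4, Fgf3 and Fgf17 by the primitive streak and the mesoderm leaving it, while Fgf8, Fgf10, Fgf3 and Fgf15 are known from pharyngeal tissue and the second heart field.

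The cells came from the D3 line of mouse embryonic stem cells, kept on feeder fibroblasts and differentiated without leukemia inhibitory factor as embryoid bodies, which are floating aggregates, in medium with ascorbic acid. Transgenic clones carrying GFP driven by an Nkx2-5 enhancer and the minimal Hsp68 promoter, with a hygromycin resistance vector, were sorted by GFP into a positive and a negative fraction on days 5, 6, 7 and 8, in what the titles call batch 1 and batch 2. The reporter therefore marks activity of that enhancer fragment, and how many clones were sorted is not given in the sources used here. In a separate D3 clone the alpha myosin heavy chain (Myh6) promoter drove neomycin resistance, and its cardiomyocytes were selected for that resistance (2 arrays, with no day and no batch given). This makes 9 groups of 2 arrays. Separate cultures are not stated for the 2 arrays of a group, so the p-values reflect the spread among these arrays alone, and that spread may be technical.

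Values are MAS5 signals, which compare a gene with itself across arrays but not 1 gene with another. Array medians lay between 18.2 and 29.3, and precision is limited by having 2 arrays a group. Nkx2-5 was higher in the GFP-positive array in all 8 pairs matched by day and batch, and Myh6 stood at 8122.3 and 7891.5 in the selected cardiomyocytes against 2920.9 at most in sorted cells. The day 5 arrays of batch 2 stood apart from those of batch 1. Mesp1, a factor of the earliest mesoderm, was at 1527.2 and 2462.7 in the GFP-positive and GFP-negative fractions of batch 2 but at 37.3 and 112.2 in batch 1, and Mixl1, a homeobox gene of the primitive streak, was at 1679.9 and 1048.5 against 12.2 and 54.7. Tnnt2, the cardiac troponin T gene, was at 5.9 and 1.1 in batch 2 against 2482.3 and 963.6 in batch 1. For tested genes that are named, differences between day 8 and day 5 that passed are also given without these arrays. In such bulk samples, fewer cells of a type and less RNA per cell cannot be told apart.

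RefSeq places Fgf3, Fgf4 and Fgf15 next to each other on chromosome 7 (build GRCm38.p6), with only the long noncoding RNA Gm26793, which overlaps Fgf15, among them. Promoter sequence was at hand for Fgf3, Fgf4, Fgf5 and Fgf10. The windows of Fgf3 and Fgf5 are shown, since their signals changed the most over the days, and each holds the 250 bases before the annotated start on the plus strand, at chr7:144838362-144838611 and chr5:98253934-98254183. Capitals mark matches, searched on both strands, to the GC box GGGCGG and the T-box core AGGTGT, and the TATA box TATAAA, the octamer ATTTGCAT and the ETS site CCGGAAGT were searched too.
Fgf3: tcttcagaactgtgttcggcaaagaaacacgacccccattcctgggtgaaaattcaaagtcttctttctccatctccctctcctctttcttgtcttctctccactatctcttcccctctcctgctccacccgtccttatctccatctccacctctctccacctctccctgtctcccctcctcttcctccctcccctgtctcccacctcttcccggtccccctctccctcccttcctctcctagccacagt
Fgf5: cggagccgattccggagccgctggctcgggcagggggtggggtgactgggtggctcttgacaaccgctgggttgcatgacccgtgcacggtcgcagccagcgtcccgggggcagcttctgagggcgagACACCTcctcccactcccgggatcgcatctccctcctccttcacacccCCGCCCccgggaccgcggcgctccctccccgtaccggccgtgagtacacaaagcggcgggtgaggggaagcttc
The Fgf3 window held 0 matches to these motifs. It is 79.2% C or T, a share that 0.0761% of 32851 RefSeq promoter windows of that length reach. The Fgf5 window held 1 AGGTGT match (read as ACACCT), which 11.8% of all windows hold, and 1 GGGCGG match (read as CCGCCC), which 32.7% hold. TATAAA occurs in 12.4%, ATTTGCAT in 1.6% and CCGGAAGT in 2.88% of windows. These matches are descriptions of the letters only.

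Fgf3 was highest on day 5 and lowest on day 8 among sorted cells, in both GFP fractions and both batches. Fgf15 followed this course in GFP-positive cells, while in GFP-negative cells it was highest on day 6 in batch 2 and lowest on day 7 in batch 1. Fgf5 was highest in GFP-negative cells of days 5 and 6. Fgf4, Fgf10, Fgf8 and Fgf17 stayed near or below the median signal on nearly every array. Of the 5 tested members, 3 fell from day 5 to day 8 over both fractions, and 1 fell in selected cardiomyocytes against day 8 GFP-positive cells. Among those 3 was Fgf5, which entered the test only through arrays of days 5 and 6. Fgf5 alone was called as lower in GFP-positive cells over all days, but it entered the test through its GFP-negative arrays.

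**Figure D1:**
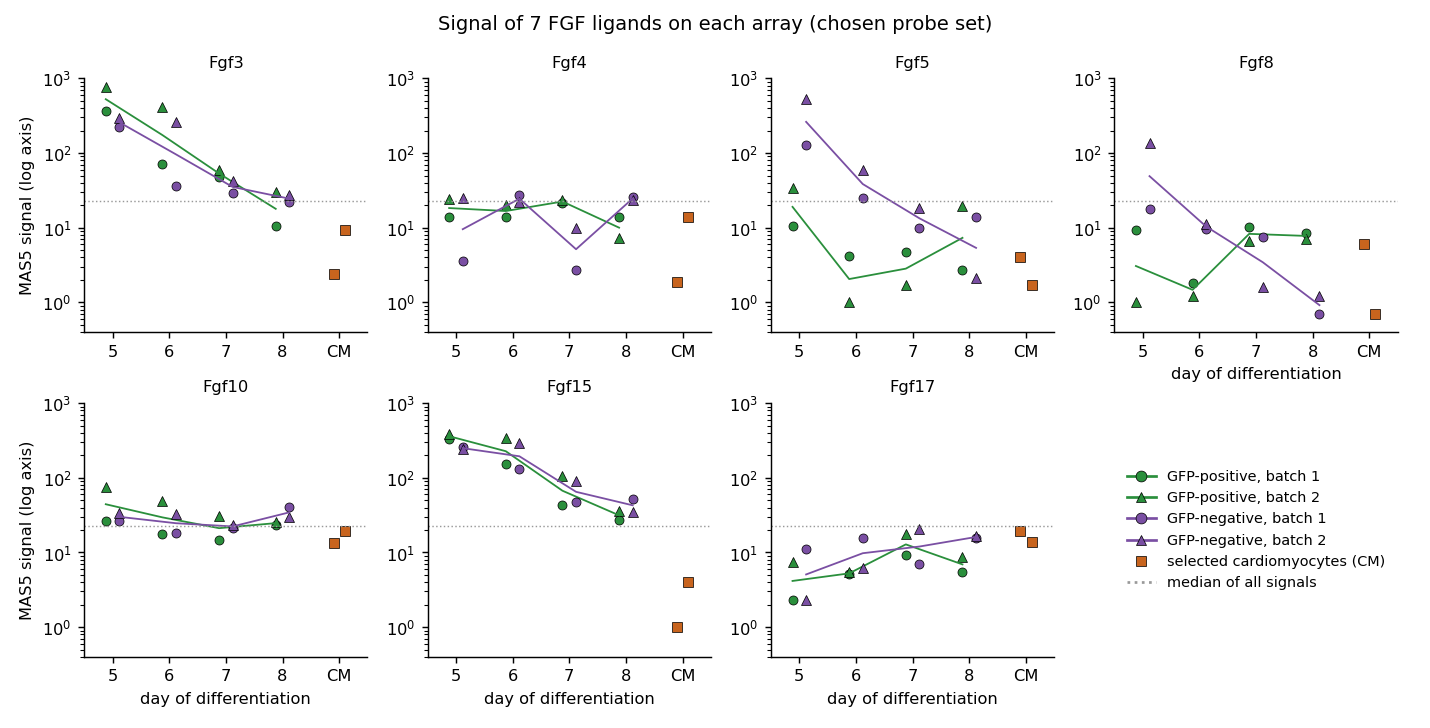
Signal (log axis) of each member's chosen probe set on all 18 arrays, by day of differentiation; green is GFP-positive, purple GFP-negative, circles batch 1, triangles batch 2, squares selected cardiomyocytes (CM), lines the geometric means of the 2 batches, and the dotted line the median of all signals (22.5). Fgf3 and Fgf15 descend in both fractions, Fgf5 is high in GFP-negative cells of day 5 (127.6 and 537.5), and the other members lie mostly near or below the dotted line.

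Fgf3, a ligand of the streak, hindbrain and inner ear region, had 3 probe sets with the same course. In GFP-positive cells the chosen probe set 1441350_at had signals of 361.7 and 767.2 on day 5 (batch 1, then batch 2), 72.4 and 418.9 on day 6, 47.2 and 60.1 on day 7, and 10.6 and 30.2 on day 8. In GFP-negative cells it had 224.7 and 296.8, then 35.8 and 257.1, then 29.3 and 42.2, and finally 22.1 and 27.1 on day 8. The selected cardiomyocytes had 2.4 and 9.2. All 4 day 8 arrays lay below all 4 day 5 arrays, which 11.6% of the genes tested also did, and both cardiomyocyte arrays lay below all 16 sorted arrays, as for 20.3% of genes. By group mean, the order was day 5 GFP-positive, day 5 GFP-negative, day 6 GFP-positive, day 6 GFP-negative, day 7 GFP-positive, day 7 GFP-negative, day 8 GFP-negative, day 8 GFP-positive and cardiomyocytes. The neighbours from the second to the fifth place, and the pair of day 8 groups, overlapped.

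Fgf3 fell from day 5 to day 8, with a difference of -3.74 ± 0.57 (log2 of signal + 6.8, SE; 4 arrays against 4; limma adjusted p = 9.99e-04), with -3.70 in batch 1 and -3.77 in batch 2. Beside the 3 of 5 tested members that fell, 13.5% of the 13379 genes tested fell and 31.7% changed in either direction. That background depends on the scaling: 57.5% of the genes called were higher on day 8 with the deposited signals, 46.2% after quantile normalization and 20.2% with equal array medians, and the calls of the 3 members held under both. The median of all genes moved by -0.13 and -0.36 (log2) under these scalings, and Fgf3 stood at -4.06 under the latter. In GFP-positive cells Fgf3 stood at -4.40 ± 0.81 (limma adjusted p = 0.00681) and in GFP-negative cells at -3.08 ± 0.81 (adjusted p = 0.0284). With both day 5 arrays of batch 2 left out, the fall over both fractions was kept (-3.37, limma adjusted p = 0.0164). Within a fraction the call was then lost, at -3.86 (adjusted p = 0.0758) in GFP-positive cells and -2.89 (adjusted p = 0.149) in GFP-negative cells.

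The other Fgf3 probe sets gave the same call over both fractions, at -3.33 ± 0.54 for 1422923_at (limma adjusted p = 0.0012 over 24382 probe sets) and -3.41 ± 0.50 for 1441914_x_at (adjusted p = 8.09e-04). Without the day 5 arrays of batch 2 they stood at -2.99 (adjusted p = 0.0179) and -2.96 (adjusted p = 0.0135). They differed over the fractions. Probe set 1422923_at was higher in the GFP-positive array in 8 of 8 pairs, as 3.45% of tested genes were, by a mean of 1.09 (log2). In a two-sided exact sign-exchange permutation test it had p = 0.0078, the smallest that 8 pairs can give. Adjusted over 14 probe sets it did not pass (adjusted p = 0.109). On day 7 it stood at 45.7 and 31.8 in GFP-positive against 1.3 and 30.8 in GFP-negative cells, and on day 8 at 19.3 and 29.9 against 3.8 and 6.6. The chosen probe set was higher in 7 of 8 pairs, by 0.50 ± 0.41, and 1441914_x_at in 6 of 8, by 0.61 ± 0.35. In the limma fit over all probe sets none of the 3 passed (adjusted p = 0.165 for 1422923_at). In the cardiomyocytes 1422923_at stood at 25.5 and 35.1, within its range on days 6 to 8, where the other probe sets were at 9.2 or less.

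**Figure D2:**
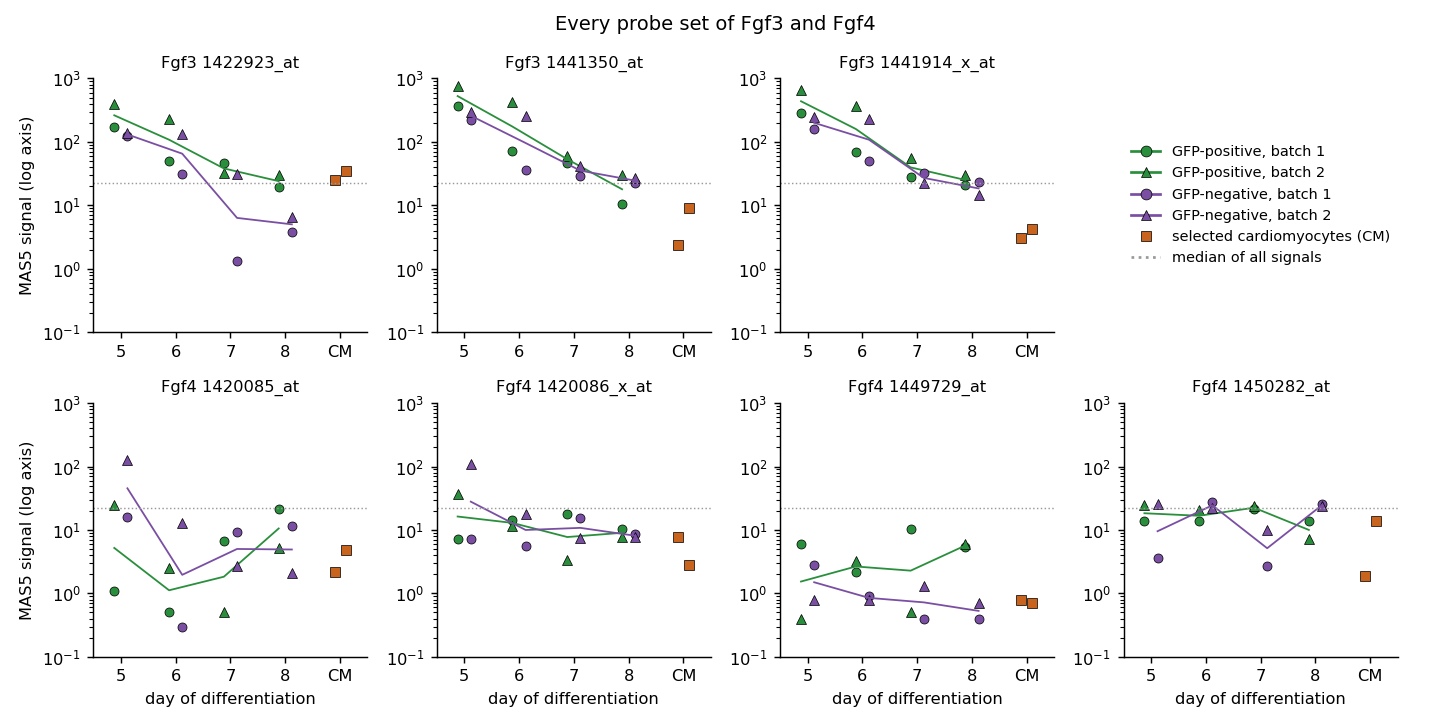
Signal (log axis) of every probe set of Fgf3 (top) and Fgf4 (bottom) by day, with symbols for fraction, batch and selected cardiomyocytes (CM), lines for the geometric means and a dotted line at 22.5. The Fgf3 probe sets descend together and part in late GFP-negative cells and cardiomyocytes, while Fgf4 is above 100 only in day 5 GFP-negative cells of batch 2, on 2 of its 4 probe sets.

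The chosen probe set of Fgf3 was also higher in batch 2 than in batch 1 in all 8 groups of day and fraction, as were 1.24% of genes. Probe set 1422923_at was higher in 7 of 8 groups and 1441914_x_at in 6 of 8. For the chosen probe set the gap (log2) lay between 0.23 and 2.63 and was widest in day 6 GFP-negative cells (35.8 against 257.1). Its mean of 1.07 ± 0.28 did not pass (limma adjusted p = 0.0938), and for batch 2 against batch 1 no gene passed (0% of 13379), with 3 of the 5 tested members at an unadjusted p under 0.05. The other members at such a p were Fgf15 (0.53 ± 0.19, higher in batch 2 in 6 of 8 groups) and Fgf10 (0.51 ± 0.20, in 7 of 8).

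Fgf15, the mouse counterpart of the endocrine ligand FGF19, known from the early brain and the second heart field and later from the gut, has 1 probe set. GFP-positive cells had signals of 334.4 and 390.4 on day 5, 151.1 and 342.2 on day 6, 43.0 and 105.0 on day 7, and 27.2 and 36.4 on day 8. GFP-negative cells had 258.0 and 241.8, then 130.6 and 289.7, then 46.9 and 90.0, and 52.0 and 35.3 on day 8. The cardiomyocytes had 1.0 and 4.0, the lowest of all. All 8 arrays of days 7 and 8 lay below all 8 arrays of days 5 and 6, which held for 1.02% of the genes tested and for no other member tested. In the order of group means, day 6 GFP-negative and day 7 GFP-positive were separate, as were the top pair and the bottom pair, and the neighbours between overlapped.

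Fgf15 fell from day 5 to day 8, with a difference of -2.82 ± 0.34 (log2, SE; limma adjusted p = 5.64e-04), with -2.75 in batch 1 and -2.88 in batch 2. In GFP-positive cells it was -3.26 ± 0.48 (limma adjusted p = 0.00409), where 2 of 5 tested members and 8.23% of all genes fell (19.4% changed in either direction). In GFP-negative cells it was -2.37 ± 0.48 (limma adjusted p = 0.0108). There 3 of 5 members (with Fgf5, which entered only through early arrays) and 5.61% of all genes fell (13.0% changed in either direction). Without the day 5 arrays of batch 2 the values were -2.78 over both fractions (limma adjusted p = 0.00929), -3.15 in GFP-positive cells (adjusted p = 0.0498) and -2.41 in GFP-negative cells, where the call was lost (adjusted p = 0.0699). The fractions did not differ detectably in Fgf15, by 0.10 ± 0.24 over all days (6 of 8 pairs higher in GFP-positive cells; limma adjusted p = 0.866).

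Fgf15 was the only tested member that changed in selected cardiomyocytes against day 8 GFP-positive cells, where it fell by 2.06 ± 0.48 (2 arrays against 2; limma adjusted p = 0.00525). In that comparison 21.8% of all genes fell and 35.6% changed in either direction. The share of higher genes among those called was 38.6%, but 46.7% after quantile normalization and 75.3% with equal array medians, under which Fgf15 kept its call at -1.73. Both cardiomyocyte signals lay below the offset of 6.8, so the size depends on that offset: it was -3.36 with an offset of 1 and -1.12 with the median of all values. The other tested members missed the threshold: Fgf3 stood at -1.06 ± 0.81, Fgf5 at -0.73 ± 0.70, Fgf10 at -0.45 ± 0.48 and Fgf4 at -0.35 ± 0.53. The cardiomyocytes come from another clone, so clone, selection and cell state cannot be told apart here.

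Fgf5, the ligand that marks the epiblast and later ends hair growth, was read with probe set 1438883_at. GFP-negative cells had signals of 127.6 and 537.5 on day 5, 25.0 and 59.1 on day 6, 9.8 and 18.2 on day 7, and 13.7 and 2.1 on day 8. GFP-positive cells had 10.6 and 34.1, then 4.2 and 1.0, then 4.7 and 1.7, and 2.7 and 19.8 on day 8, and the cardiomyocytes had 4.0 and 1.7. On day 5 and on day 6 both GFP-negative arrays lay above both GFP-positive ones, which held for 18.0% and 13.0% of the genes tested. In the order of group means, day 5 GFP-negative stood apart from the next group, day 6 GFP-negative, and every further neighbour overlapped. Its other probe set, 1426186_a_at, was dim throughout, with its highest signals of 15.5 and 15.2 in the same day 5 GFP-negative cells.

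Averaged over the 4 days, Fgf5 was lower in GFP-positive cells, at -1.61 ± 0.35 (log2, SE; 8 arrays against 8; limma adjusted p = 0.0293). It was the only 1 of 5 tested members to pass, beside 0.538% of all genes that passed as lower and 2.68% in either direction. Its 5 arrays at or above 22.5, through which it entered the test, were the 4 GFP-negative arrays of days 5 and 6 and 1 GFP-positive array of day 5. The filter of 2 arrays was thus met only through the GFP-negative fraction, where Fgf5 was high. Its call over all days is therefore no support beyond its signals. The GFP-negative array was the higher in 7 of the 8 pairs matched by day and batch. This did not pass once adjusted over 14 probe sets (two-sided exact sign-exchange permutation test, p = 0.0469, adjusted p = 0.131). The difference was -1.53 in batch 1 (limma adjusted p = 0.0832) and -1.70 in batch 2 (adjusted p = 0.695), so neither batch passed alone. These fits held additive terms for fraction and day, so any change of the difference over the days counted as spread. Leaving out single arrays kept the call in 10 of 18 fits (adjusted p between 0.0106 and 0.0796). The call was lost without the batch 1 GFP-positive array of day 5, 6, 7 or 8, the batch 2 GFP-positive array of day 7, or the batch 2 GFP-negative array of day 5, 6 or 7. Without both day 5 arrays of batch 2 it was -1.52 (limma adjusted p = 0.026).

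Day by day, the Fgf5 difference between GFP-positive and GFP-negative cells was -3.34 ± 0.70 on day 5, -2.31 ± 0.70 on day 6, -1.04 ± 0.70 on day 7 and 0.24 ± 0.70 on day 8. None of these passed (limma adjusted p = 0.201 on day 5), and on no single day was any of the 5 tested members called. Of all genes, 0.0149% passed on day 5, 0% on days 6 and 7 and 2.58% on day 8. With the batch 1 GFP-negative array of day 5 left out, the day 5 difference was -4.35. That fit kept only the batch 2 array of that group, at 537.5, in a gene that met the filter only through GFP-negative cells. On day 8 the batches went opposite ways, at -1.11 and 1.58, from signals that were all under 22.5.

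From day 5 to day 8 Fgf5 fell in GFP-negative cells, with a difference of -4.32 ± 0.70 (limma adjusted p = 0.00639), with -2.71 in batch 1 and -5.93 in batch 2. Over both fractions it fell by 2.54 ± 0.50 (adjusted p = 0.0029), and within each batch this missed the threshold, at -1.79 (adjusted p = 0.0615) and -3.28 (adjusted p = 0.102). In GFP-positive cells it stood at -0.75 ± 0.70 (adjusted p = 0.481). The 5 arrays through which Fgf5 entered the test were all of days 5 and 6. Its calls as lower on day 8 are therefore no support beyond its signals. Without the day 5 arrays of batch 2, the falls were -3.31 in GFP-negative cells (adjusted p = 0.0441) and -1.72 over both fractions (adjusted p = 0.043), both from limma. The difference between the fractions in this change was 3.58 ± 0.99 and did not pass (limma adjusted p = 0.148), nor did that of any other tested member, beside 0.00747% of all genes. It was 1.84 in batch 1 and 5.31 in batch 2.

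**Figure D3:**
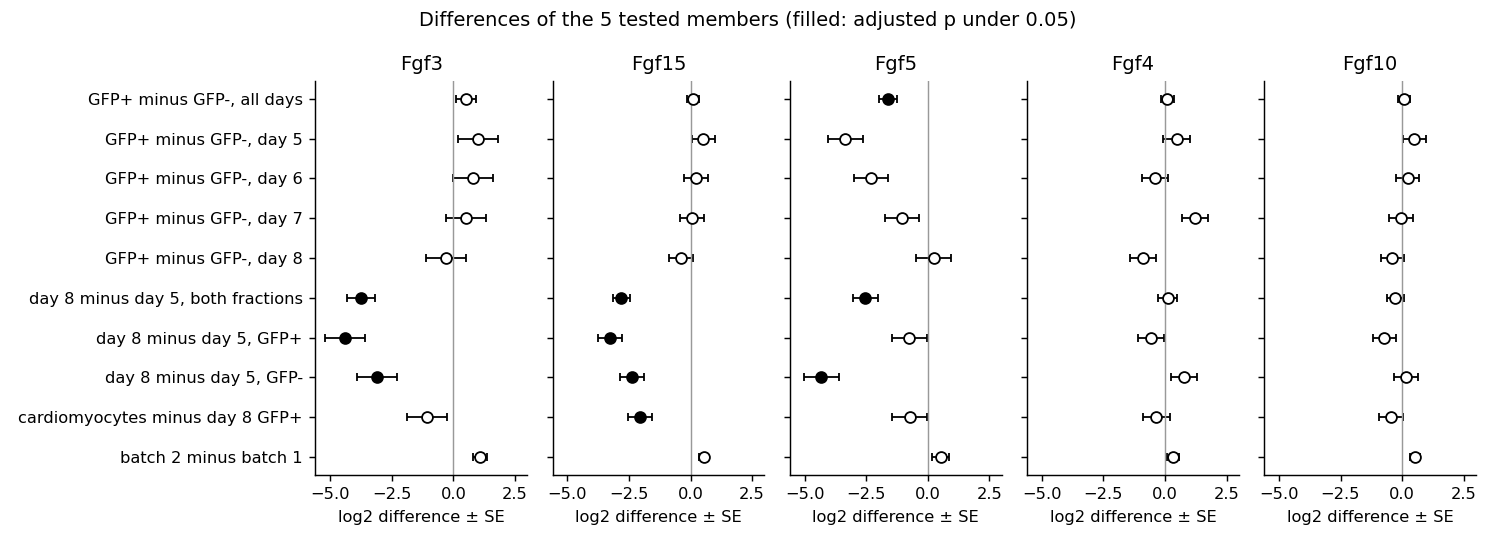
Difference in log2(signal + 6.8) ± SE from the limma fit, for the 5 tested members (columns) in 10 comparisons (rows); filled points have an adjusted p under 0.05 and the vertical line marks 0. Fgf3 and Fgf15 have filled points for day 8 against day 5, over both fractions and within each, and Fgf15 also for cardiomyocytes. Fgf5 has filled points for the average over days between fractions, and for day 8 against day 5 over both fractions and in GFP-negative cells. Fgf4 and Fgf10 have none.

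Markers of epiblast and pluripotent cells had their highest sum on the array where Fgf5 was highest, day 5 GFP-negative of batch 2. The summed signal of 8 was 3994 and 12836 in day 5 GFP-negative cells, 1703 and 5181 in day 5 GFP-positive cells, and between 1004 and 2648 in all later sorted groups. On day 6 it was 1589 and 2648 in GFP-negative against 1621 and 1688 in GFP-positive cells. On day 7 it was 1088 and 1372 against 1437 and 1409. Fgf5 was higher in the GFP-negative array in each of these later pairs. Pou5f1, the pluripotency factor Oct4, was at 229.6 and 1161.2 in day 5 GFP-negative against 15.7 and 306.3 in GFP-positive cells. Otx2, a homeobox gene of the epiblast and anterior brain, was at 463.3 and 1516.7 against 60.7 and 161.3. In the cardiomyocytes the sum was 142.6 and 125.6, with Pou5f1, Sox2 and Otx2 under the offset of 6.8. The part of these cells in the Fgf5 result was not tested. Blood markers went another way between batches, since the sum of 4 was 8228 and 8013 in the day 5 fractions of batch 1 but 279.2 and 187.9 in those of batch 2.

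Fgf8, the ligand that mesoderm needs to leave the primitive streak and that acts in the second heart field, was at or above 22.5 on 1 array, the day 5 GFP-negative array of batch 2, at 134.4. The batch 1 array of that group had 17.9. On the other 14 sorted arrays it lay between 0.7 and 11.3, and the cardiomyocytes had 6.1 and 0.7. On day 8 it stood at 8.6 and 7.0 in GFP-positive cells and at 0.7 and 1.2 in GFP-negative cells, all under the median signal. With the filter on dim genes removed, Fgf8 passed as lower on day 8 than on day 5 in GFP-negative cells (-2.93, limma adjusted p = 0.0146) and over both fractions (-1.28, adjusted p = 0.0500). Only 1 of the arrays compared reached 22.5, and GFP-negative signals went from 17.9 to 0.7 in batch 1 and from 134.4 to 1.2 in batch 2. How far these calls rest on the 1 bright array was not tested.

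Fgf4, the ligand of the inner cell mass and streak, has 4 probe sets that disagreed. The chosen one, 1450282_at, stayed between 2.7 and 27.3 on sorted arrays and at 1.9 and 13.8 in cardiomyocytes, and all neighbours in its order of group means overlapped. Both of its day 6 GFP-negative signals (27.3 and 21.9) exceeded both GFP-positive ones (13.7 and 20.4). Probe sets 1420085_at and 1420086_x_at were brightest on the array where Fgf8 was, day 5 GFP-negative of batch 2, at 126.8 and 108.2, and second on its GFP-positive counterpart, at 24.6 and 37.3. The fourth, 1449729_at, was at 10.4 or less everywhere. No Fgf4 probe set passed in any comparison, and for 1420085_at the change from day 5 to day 8 in GFP-negative cells was -2.12 ± 0.84 (limma adjusted p = 0.121).

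The array that held the highest signal of Fgf5, of Fgf8 and of 2 of the 4 Fgf4 probe sets also held the highest Mesp1, Pou5f1, Otx2 and Nanog signals, at 2462.7, 1161.2, 1516.7 and 624.9. The summed signal of the 6 primitive streak and early mesoderm markers with a probe set (of 7) was 5730 there and 5587 in GFP-positive cells of the same day and batch, against 383.3 and 102.8 in batch 1 and between 73.7 and 451 on later sorted arrays. Fgf8 was at 1.0 in those GFP-positive cells of batch 2, although Mixl1 was at 1679.9 and Mesp1 at 1527.2 there. Fgf3 was at its highest on that GFP-positive array instead, at 767.2.

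**Figure D4:**
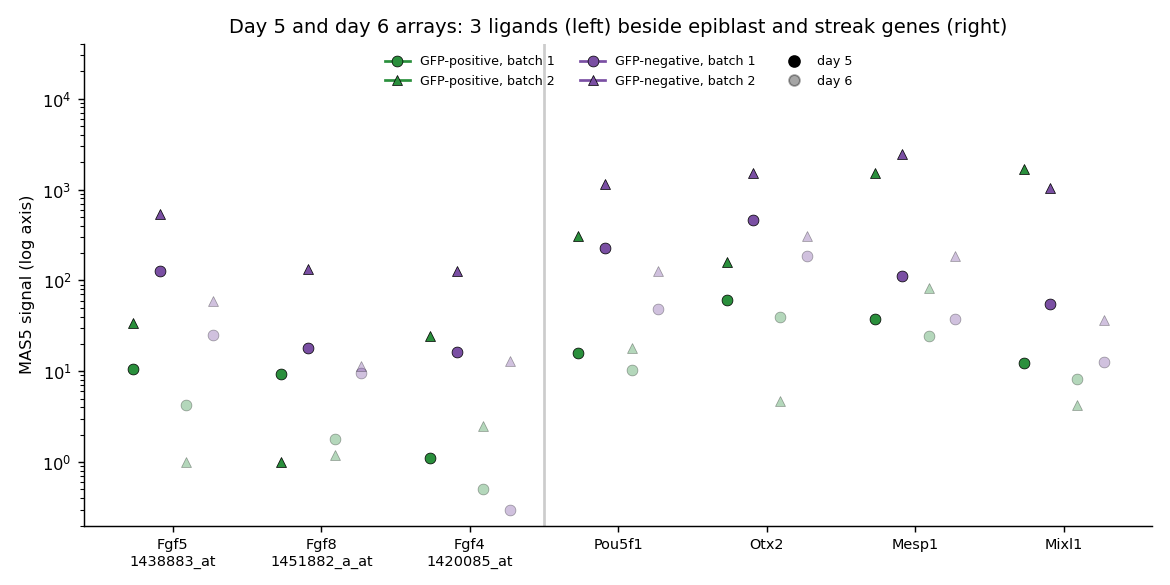
Signal (log axis) of Fgf5, Fgf8 and the Fgf4 probe set 1420085_at beside Pou5f1, Otx2, Mesp1 and Mixl1 on the 4 arrays of day 5 (solid) and the 4 of day 6 (pale), coloured by fraction, with circles for batch 1 and triangles for batch 2. The GFP-negative triangle of day 5 is the highest point for each ligand, while for Mixl1 the GFP-positive one is higher (1679.9 against 1048.5).

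Fgf10, a ligand of second heart field, lung and limb mesoderm, stayed near the median signal. GFP-positive cells had 26.2 and 74.9 on day 5, 17.8 and 49.0 on day 6, 14.5 and 30.9 on day 7, and 23.7 and 25.8 on day 8. GFP-negative cells had 26.6 and 33.9, 18.3 and 33.2, 21.4 and 23.3, and 40.3 and 29.5, and cardiomyocytes had 13.5 and 19.3. Neighbouring groups overlapped, except that the cardiomyocytes lay below day 7 GFP-negative cells. Its change from day 5 to day 8 was -0.28 ± 0.34 and its difference between fractions 0.07 ± 0.24, and it passed in no comparison.

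Fgf17, a ligand of the streak and midbrain border, never reached the median signal. Its probe set 1421523_at lay between 2.3 and 20.6 on sorted arrays, highest in day 7 GFP-negative cells of batch 2, and at 19.1 and 13.7 in cardiomyocytes, and 1456239_at was at 6.5 or less.

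Among the genes whose log2 signals ran most like a member over the 16 sorted arrays, described by Pearson's r, Fgf15 stood second for Fgf3 (0.937), after Syncrip (0.94), an RNA-binding protein gene, and before Cherp (0.935). Fgf15 was most like Ccdc86 (0.98), Znhit6 (0.973) and Ms4a4d (0.964). Syncrip fell over the days far less than Fgf3, from between 777.1 and 1069.2 on day 5 to between 485.3 and 547.3 on day 8. Fgf5 was most like Trh (0.973), the thyrotropin-releasing hormone gene, Slc27a2 (0.942), a fatty acid transporter gene, and Cer1 (0.939), a secreted Nodal and BMP antagonist of anterior endoderm. Cer1 stood at 59.6 and 658.3 in day 5 GFP-negative cells against 11.7 and 26.8 in GFP-positive cells. Fgf5 correlated with Fgf3 at 0.444 and with Fgf15 at 0.446. The genes most like Fgf10 were Dmrta1 (0.82), Camk4 (0.814) and Bcl11b (0.808), and those most like Fgf4 were Guca1b (0.781), Dexi (0.728) and Bfsp2 (0.721). All genes share the arrays, days and batches behind these values.

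The receptors of these ligands were read with a list of 7, of which 6 were tested. Fgfr4, a receptor of endocrine FGFs, was at 113.9 and 121.0 on day 8 in the GFP-positive fraction, and at 24.6 and 14.3 in the GFP-negative fraction. It was higher in GFP-positive cells on day 8 by 2.27 ± 0.47 (limma adjusted p = 0.0268), the only 1 of 6 called, beside 2.32% of all genes that were higher. This call was lost with equal array medians (2.03, adjusted p = 0.0515), and without either GFP-positive array or the batch 2 GFP-negative array of day 8 (adjusted p up to 0.228). Klb, the klotho coreceptor that Fgf15 uses, was at 260.3 and 197.7 against 55.9 and 37.3, a difference of 2.15 ± 0.68 that passed with batch added to the fit (limma adjusted p = 0.113, and 0.0124 with it), when 5.27% of all genes passed. Over all days, Klb stood at 1.29 ± 0.34 (adjusted p = 0.064, and 0.00416 with batch) and Fgfr4 at 0.93 ± 0.24 (adjusted p = 0.0549, and 0.0419 with batch). Without batch 0 of 6 receptor genes passed over all days, beside 2.14% of all genes as higher, and 5.41% passed in either direction with it. With both day 5 arrays of batch 2 left out, Fgfr4 and Klb were called on day 8 and over all days.

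Over time, Klb and Fgfr4 rose in GFP-positive cells, and neither was called in GFP-negative cells. The test of the difference between fractions in this change called 0 of 6 receptor genes, beside 0.00747% of all genes. With batch in the fit it also called 0 of 6, beside 1.03% of all genes. A rise particular to GFP-positive cells was thus not shown. From day 5 to day 8, 2 of 6 receptor genes rose over both fractions, as did 18.2% of all genes, and 0 fell, with a median difference over the list of 0.64 against 0.07 for all genes. Klb rose by 2.68 ± 0.48 (limma adjusted p = 0.00197) and Fgfr4 by 0.94 ± 0.33 (adjusted p = 0.0466), but Fgfr4 kept its call in only 7 of 18 fits without 1 array and lost it under both other scalings (adjusted p = 0.143 and 0.164). Without the day 5 arrays of batch 2, Klb stood at 1.84 (adjusted p = 0.0234) and Fgfr4 lost its call (0.87, adjusted p = 0.133). In GFP-positive cells 2 of 6 rose, as did 11.2% of all genes. Klb rose there by 3.52 ± 0.68 (limma adjusted p = 0.0077) and Fgfr4 by 2.19 ± 0.47 (adjusted p = 0.0105), and without both day 5 arrays of batch 2 neither passed (adjusted p = 0.0712 and 0.106). In GFP-negative cells 0 of 6 were called, with Fgfr4 at -0.31 ± 0.47 (limma adjusted p = 0.711) and Klb at 1.83 ± 0.68 (adjusted p = 0.0914, and 0.0104 with batch in the fit). Both were lower in the cardiomyocytes than in day 8 GFP-positive cells, Fgfr4 at 3.5 and 16.7 (limma adjusted p = 4.38e-04) and Klb by -2.09 ± 0.68 (adjusted p = 0.0291, but 0.0881 with equal array medians). Endoderm markers were highest in day 8 GFP-positive cells, where the summed signal of 6 was 13548 and 11855. The sum was 3692 and 1550 in day 8 GFP-negative cells and 386.9 and 303.2 in cardiomyocytes. On day 5 these markers summed to 3818 and 150 in GFP-positive and 3402 and 1474 in GFP-negative cells. Their part in the receptor result was not tested.

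Of 14 FGF and ERK response genes, 13 were tested. On day 8, 2 were higher in GFP-positive cells, the ETS factors Etv4 and Etv5, beside 2.32% of all genes. Etv4 was at 32.0 and 91.9 against 3.2 and 1.9 in GFP-negative cells (2.73 ± 0.53, limma adjusted p = 0.0221), and Etv5 at 275.3 and 335.5 against 108.0 and 68.3 (1.74 ± 0.40, adjusted p = 0.0391). Etv4 entered the test only through the day 8 GFP-positive arrays, since 1 other array (32.8, day 5 GFP-negative of batch 2) reached 22.5, so its calls on day 8 and against day 8 are no support beyond its signals. Both calls held under the other scalings and were lost without either GFP-positive array or the batch 2 GFP-negative array of day 8, where adjusted p reached 0.246 and 0.293, and that of Etv5 also without either cardiomyocyte array. Over all days neither passed (adjusted p = 0.232 and 0.249).

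From day 5 to day 8 over both fractions, 3 response genes rose and 2 fell, beside 18.2% and 13.5% of all genes. Dusp4, an ERK phosphatase, fell by 1.75 ± 0.27 (limma adjusted p = 0.00104), and Il17rd, the membrane inhibitor also called Sef, fell by 1.72 ± 0.32 (adjusted p = 0.00233). Flrt3, a membrane partner of FGF receptors, rose by 1.42 ± 0.35 (adjusted p = 0.00933), Egr1 by 1.15 ± 0.24 (adjusted p = 0.00409) and Spry1 by 0.57 ± 0.17 (adjusted p = 0.0234). With equal array medians 2 response genes rose and 7 fell, and Spry1 was at 0.17. Without both day 5 arrays of batch 2, Dusp4 and Il17rd kept their calls (adjusted p = 0.013 and 0.0276), while Egr1, Flrt3 and Spry1 lost theirs (adjusted p = 0.0558, 0.0945 and 0.202).

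From day 5 to day 8, 5 of the 13 response genes were called within each fraction. In GFP-negative cells 4 fell and 1 rose, where 5.61% of all genes fell and 7.40% rose, and with equal array medians 6 fell and 0 rose. Il17rd fell by 2.35 ± 0.45 (limma adjusted p = 0.00912), from 389.1 and 826.1 to 135.3 and 82.6. Dusp4 fell by 2.30 ± 0.39 (adjusted p = 0.00654) and Etv5 fell by 1.69 ± 0.40 (adjusted p = 0.019). In GFP-positive cells 4 rose and 1 fell, where 11.2% of all genes rose and 8.23% fell. With equal array medians this balance turned, to 1 higher and 3 lower. Etv4 was up by 2.18 ± 0.53 (limma adjusted p = 0.0159), Flrt3 by 1.68 ± 0.50 (adjusted p = 0.0336, but 0.0899 with equal array medians), and Dusp4 stood at -1.19 ± 0.39 (adjusted p = 0.0468). Of these, Dusp4 and Il17rd in GFP-negative cells passed without both day 5 arrays of batch 2 (adjusted p = 0.047 for each), while Etv5 there (adjusted p = 0.111) and Etv4, Flrt3 and Dusp4 in GFP-positive cells (adjusted p = 0.0533, 0.223 and 0.157) did not. The test of the difference between fractions called 0 of 13, and Etv4 came nearest at 3.45 ± 0.75 (limma adjusted p = 0.0766, and 0.0454 with batch in the fit, when 1.03% of all genes passed).

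**Figure D5:**
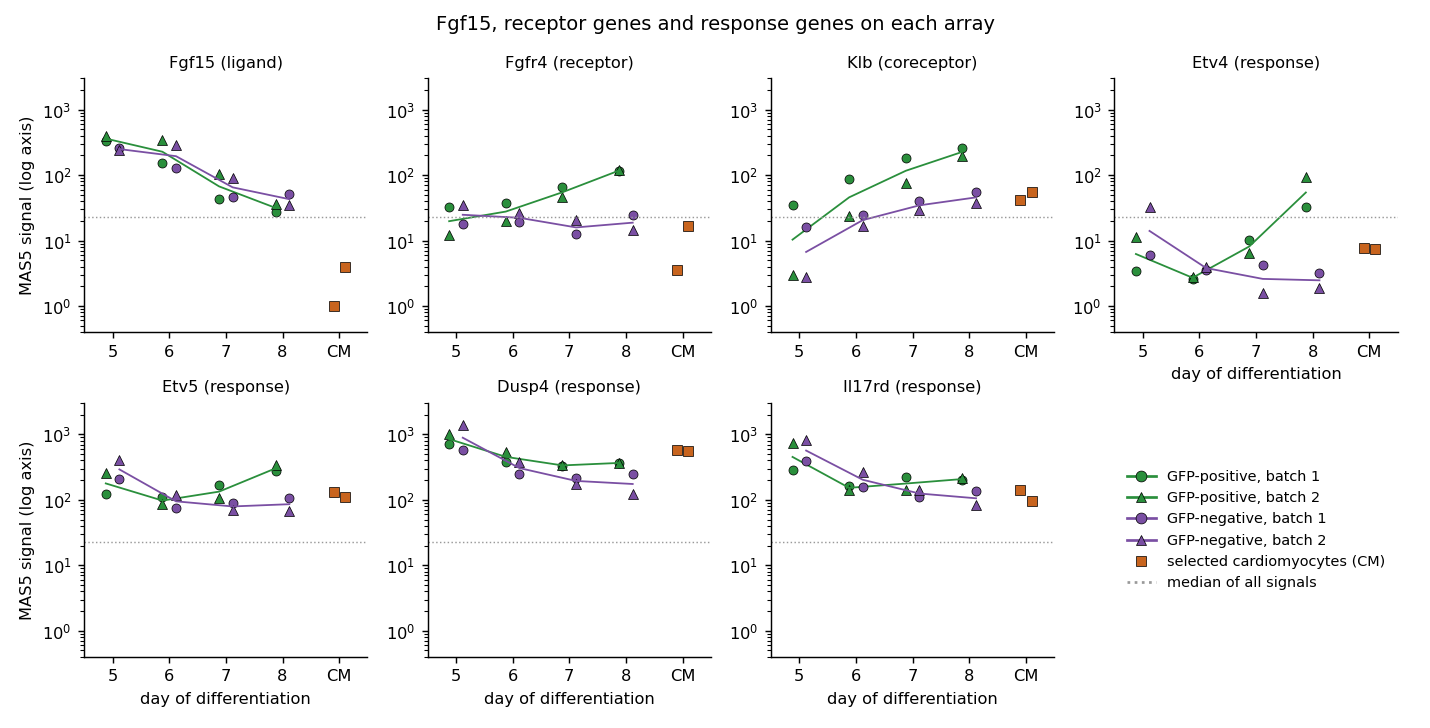
Signal (log axis) of Fgf15, of Fgfr4 and Klb, and of the response genes Etv4, Etv5, Dusp4 and Il17rd by day, with symbols for fraction, batch and selected cardiomyocytes (CM), lines for geometric means and a dotted line at 22.5. Fgf15 descends in both fractions, Fgfr4, Klb and Etv4 are higher in GFP-positive than GFP-negative cells on day 8, and Dusp4 and Il17rd are highest on day 5.

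Of the 15 other FGF ligands, 8 were tested. Between day 5 and day 8 over both fractions 0 passed, with 2 at an unadjusted p under 0.05. Fgf13, an intracellular FGF homologous factor that binds sodium channels, came nearest at -0.50 ± 0.18 (limma adjusted p = 0.0507). It was called as lower with batch in the fit (adjusted p = 0.0478), after quantile normalization (0.0105), with equal array medians (0.00507) and without both day 5 arrays of batch 2 (0.0373). In the cardiomyocytes against day 8 GFP-positive cells, 3 rose, as did 13.7% of all genes, and 1 fell, as did 21.8%. Fgf1 and Fgf18 reached 22.5 on the 2 cardiomyocyte arrays alone and entered the test only through them, so their calls are no support beyond their signals. Fgf1, the acidic FGF, was at 105.4 and 105.0 there but between 1.0 and 16.2 on all sorted arrays, a rise of 2.75 ± 0.49 (limma adjusted p = 0.00105). Fgf18, a ligand best known from bone and cartilage, was at 62.9 and 53.6 against 13.9 at most (1.99 ± 0.41, adjusted p = 0.00263). Fgf13 was at 382.4 and 344.5 against 194.5 at most (1.65 ± 0.25, adjusted p = 3.76e-04). Fgf11, of the same intracellular group, fell by 2.42 ± 0.49 (adjusted p = 0.00239) to 3.9 and 2.5. The calls of Fgf13 and Fgf11 held under both other scalings. Fibroblast markers were high in the cardiomyocytes too, with a sum over 5 of 10934 and 10616, against 1534 and 1574 in day 8 GFP-positive and 12133 and 4566 in day 8 GFP-negative cells, and their part was not tested. Fgf1 was at 8.4 and 16.2 in those GFP-negative cells and Fgf18 at 13.9 and 3.9.

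Of 17 heparan sulfate and matrix cofactors 14 were tested. In the cardiomyocytes 6 rose and 1 fell against day 8 GFP-positive cells, beside 13.7% and 21.8% of all genes, and with equal array medians 10 rose and 1 fell. Hs6st2, a heparan sulfate sulfotransferase, was at 2840.7 and 2732.6 against 378.0 and 318.8 (2.98 ± 0.52, limma adjusted p = 8.37e-04), Sdc2, a syndecan, rose by 2.51 ± 0.35 (adjusted p = 1.72e-04) and Sulf1, an extracellular sulfatase, by 2.27 ± 0.55 (adjusted p = 0.00635). From day 5 to day 8 over both fractions 3 rose (Gpc4, Hs6st1 and Ndst2, by 1.28, 0.70 and 0.67), beside 18.2% of all genes, and with equal array medians each of the 3 missed the threshold. Without both day 5 arrays of batch 2, Gpc4 and Ndst2 kept their calls (limma adjusted p = 0.0353 and 0.0249) and Hs6st1 lost its own (adjusted p = 0.165). Of 15 intracellular transducers 9 were tested, and over both fractions Grb2, an adaptor, rose by 0.39 ± 0.13 (adjusted p = 0.0369, but 0.995 with equal array medians and 0.349 without both day 5 arrays of batch 2) and Braf, a kinase upstream of ERK, fell by 0.71 ± 0.18 (limma adjusted p = 0.0109, but 0.131 without both day 5 arrays of batch 2). Of the response genes, 6 fell in the cardiomyocytes and 0 rose, beside 21.8% and 13.7% of all genes, but with equal array medians 2 fell and 2 rose. The 6 were led by Fos at -2.29 ± 0.37 (adjusted p = 5.15e-04), Etv4 at -2.11 ± 0.53 (adjusted p = 0.00818) and Flrt3 at -1.64 ± 0.50 (adjusted p = 0.0213, but 0.0885 with equal array medians).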

How the data were processed

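The 18 samples were hybridised to Affymetrix mouse arrays. Per the labels' protocols the RNA was amplified in 2 rounds from a T7 oligo dT primer. The authors deposited a linear intensity, the MAS5 signal, from GCOS 1.4 per the submitters' processing notes. Trimmed by 2% at both ends, array means lay between 150.0008 and 150.0012. Detection calls were not used here, so background was judged from the signal alone.

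Of 45101 probe sets, 64 controls, 9160 without a gene symbol and 932 with several were left out. Each gene was represented by its probe set with the highest mean, with probe sets of type x used only where no other existed. The test took the 13379 genes that reached 22.5 on 2 or more arrays. Values were log2(signal + 6.8), the offset being the 25th percentile, so fold changes of dim genes are understated. Group means were fitted in limma 3.58.1 (R 4.3.3) over all 18 arrays with a variance trend, 9 residual degrees of freedom, Benjamini-Hochberg adjustment and a threshold of 0.05, and the script was tested on simulated data. An exact test exchanged signs over 8 pairs of the same day and batch, with Benjamini-Hochberg adjustment over the 14 member probe sets.

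The batch number in the titles pairs the samples. Over 28 pairs of groups, batch differences across genes correlated between -0.183 and 0.653, and 13 were over 0.1. Batch as a covariate (replicate block, 8 residual degrees of freedom, with no batch for the cardiomyocytes) was an alternative. Tests within a single batch used additive terms for fraction and day in place of group means.

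The members and gene lists were chosen with earlier results of these data known. All members are named. Of each pathway list at most 3 genes with the largest change past the threshold in a comparison are named, and also genes where the count is 5 or fewer or a text value bears on a member. Fgf13, Egr1, Spry1 and the values of Klb and Fgfr4 that missed the threshold were chosen after their values were seen. So were Nanog and Tnnt2 among the marker genes. Alternatives covered offset, scaling, filter, probe sets, variance model, batch, days, the reference group, the arrays in the fit and leaving out each array. Promoters and gene order are from RefSeq (GRCm38.p6), and plots were made with matplotlib 3.10.9.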

Additional observations from a re-analysis of the deposited data

How the results depend on the processing

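The alternatives changed no direction of a called member. Over single members, 785 of 815 alternative values kept their side of the threshold or, where no p-value was computed, stayed within the spread between arrays. Of the rest, 8 lost a call, 2 gained one and 20 moved beyond that spread. Direction was compared for called members only, so a member that was not called could change sign and still count as kept. With single arrays left out the figures were 961 of 980, with 18 calls lost and 1 gained. The number of members called over all days between fractions was 1, and 0 in batch 1 arrays alone and 0 in batch 2 arrays alone. From day 5 to day 8 it was 2 in GFP-positive and 3 in GFP-negative cells, and 1 in each with both day 5 arrays of batch 2 left out, an alternative added after seeing the data. With batch as a covariate (the replicate block) no count of members called changed, and Fgf5 over all days had limma adjusted p = 0.0139. Without single arrays the number called lay between 0 and 1 over all days, 0 and 1 on day 5, 1 and 2 in GFP-positive cells and 0 and 3 in GFP-negative cells between the days. In GFP-positive cells Fgf3 lost its call without the batch 2 array of day 5 or either array of day 8 (limma adjusted p up to 0.0727). In GFP-negative cells all 3 calls were lost without the batch 2 array of day 5. Fgf3 and Fgf15 lost theirs without the batch 2 array of day 8, and Fgf3 lost its own without either batch 1 array of those days and with array weights (limma adjusted p = 0.0620). The cause of these losses was not tested, beyond the fewer arrays in such fits. Signals under about 22.5 limit what can be said of Fgf4, Fgf8 and Fgf17, since values near the offset carry little order. Where 1 array was left in a group, its spread was taken from the other groups.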
